A study of Mus musculus with 11 samples.

Results

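Genes of the lysosome were followed across 3 tissues of CD1 mouse embryos at E8.5. The set holds the membrane glycoproteins of the Lamp family, the Lamtor genes of the Ragulator complex, the Atp6v and Atp6ap genes of the vacuolar proton pump, and the cathepsin (Cts) proteases. Members were chosen by gene symbol alone, with 1 probe per gene, and the symbols matched 54 of the 19938 measured genes. CD1 is an outbred stock. The groups were neuroepithelium (3 arrays), neural crest (5 arrays) and paraxial mesoderm (3 arrays), each array hybridised with amplified RNA from laser-captured cells of frozen sections. No treatment or mutation is named for any group, and the labels do not tie an array to an embryo or to a number of cells, although the series speaks of single cells. A p-value here thus reflects nothing beyond array-to-array spread, which may be technical. Should every array hold a single cell of an unnamed embryo, a tissue would amount to 1 sample and its comparisons to descriptions.

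The lysosome is the acidic compartment in which cells break down proteins, lipids and sugars. Its acidity comes from the vacuolar ATPase, a rotary pump whose cytosolic V1 sector splits ATP and whose membrane V0 sector moves protons. LAMP proteins coat the inner face of the membrane, Ragulator holds the Rag GTPases that recruit the growth kinase mTORC1 to its outer face, and cathepsins digest proteins inside. Many of these genes share a promoter element bound by the transcription factor TFEB, whose core is the E-box CACGTG.

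Each value below is a ratio of an array to a reference of the same gene, so it orders arrays within a gene and gives no expression level. A gene silent everywhere and a gene equally active everywhere both sit near 1. A ratio of at least 4 is called high and one of at most 0.25 low. Whether less RNA of a gene reflects fewer cells of a type or less RNA per cell cannot be told apart in such captures.

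The tissue labels were checked against marker lists. Of 10 neural crest markers, 1 to 5 were high on each crest array, 0 to 1 on the neuroepithelium arrays (Twist1 on array 2 and Tfap2b on array 3) and 0 on the mesoderm arrays. On crest arrays 1 and 4 the high marker was Snai1 alone. Snai1 was higher than in both other tissues in limma (adjusted p = 9.19e-06 and 2.66e-05). Of 10 neuroepithelium markers at most 1 was high on any array, and 0 of 10 paraxial mesoderm markers were high anywhere. Because a ratio near 1 does not tell a silent gene from one active on all arrays, those lists neither marked these 2 tissues nor showed their markers absent. Markers of other tissues stood on some arrays. Of 10 surface ectoderm markers, 4 to 6 were high on the neuroepithelium arrays and 4 on mesoderm array 2. Of 9 measured primitive erythrocyte markers, 7 were high on mesoderm array 1 and 0 on every other array. Foxa2 on mesoderm array 3 was the only high value among 12 gut and visceral endoderm markers, and no endothelium (10 genes), macrophage (10) or trophoblast (5) marker was high on any array.

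Of the 54 lysosomal genes, 24 were high or low on at least 1 array (44.4%), against 24.9% of all genes, and 29 stayed within 2-fold of their reference on all 11 arrays (53.7% against 71.8%). High values occurred for 18 members (background 21.7% of genes) and low values for 10 (background 4.77%). Members that varied did so widely: the highest ratio exceeded the lowest by 10.4-fold to 192-fold, with a median of 67.6-fold, and the median over all 4970 varying genes was 39.1-fold. The plot of spread by gene group separates the 2 kinds of member.

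**Figure D1:**
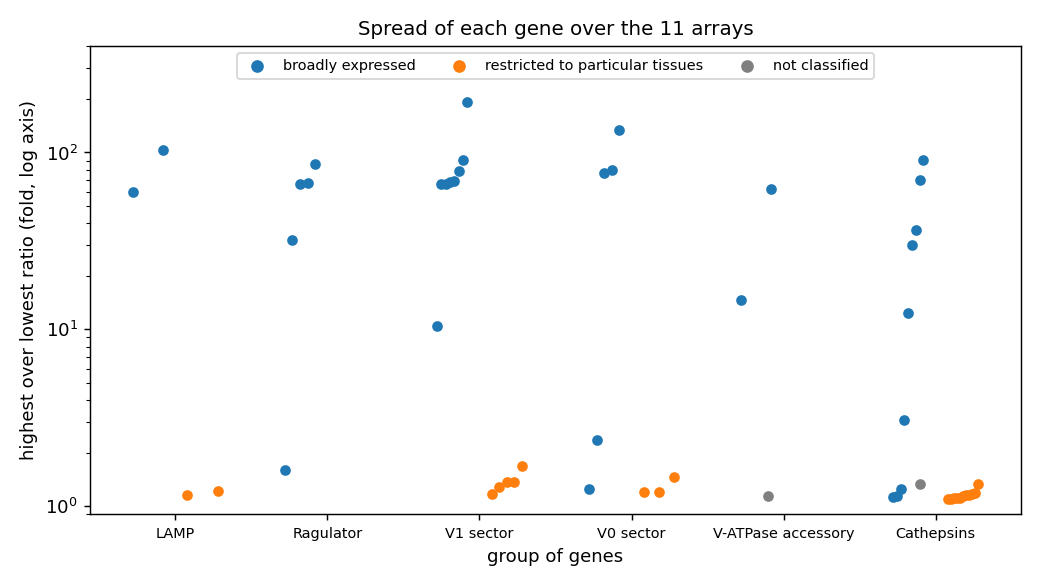
Highest over lowest ratio across the 11 arrays for each of the 54 genes (y axis, fold, log scale), by gene group (x axis), with broadly expressed genes, genes restricted to particular tissues and unclassified genes in different colours. Every restricted gene lies below 2-fold, whereas 24 of the 31 broadly expressed genes lie above 10-fold. Genes were placed as broad or restricted after the values had been seen.

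Genes placed among those used by most cells made up all of the varying members. Of 31 broadly expressed members 24 were high or low somewhere, and of 21 members known mainly from particular tissues 0 were (all within 0.756 to 1.29). This split was drawn from general knowledge after the values had been seen, so it is a description and no test. The count of 0 depends on single placements. Ctsc, which acts on proteases of blood cells, was placed with the broad genes and was high on mesoderm array 1 alone (27.9). The flat members include the kidney forms Atp6v0a4, Atp6v1b1 and Atp6v1g3, the testis form Atp6v1e2, the brain form Atp6v1g2, the osteoclast protease Ctsk, the neutrophil protease Ctsg, and the placental cathepsins Cts6, Cts7, Cts8, Ctsj, Ctsq and Ctsr. The dendritic cell gene Lamp3 and the neuronal gene Lamp5 were flat as well. So were the pump genes Atp6v1c2, Atp6v0d2 and Atp6v0e2, the immune and stomach cathepsins Ctss, Ctsw and Ctse, and the unclassified Atp6ap1l and Ctsll3. For subunits B, C, E and G of V1 and d and e of V0 the broad form of the pump subunit varied and the restricted form did not, whereas for subunit a of V0 neither did. Broad genes that stayed flat were the a subunits Atp6v0a1 and Atp6v0a2, the Ragulator gene Lamtor2 (0.839 to 1.34) and the cathepsins Ctsf, Ctsh and Ctso. Ctsa, the protective protein of lysosomal galactosidase, reached 2.77 on crest array 1 and stayed between 0.905 and 1.60 elsewhere.

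Lamp1 encodes an abundant glycoprotein of the lysosomal membrane, and it was the member that divided the tissues. On the neuroepithelium arrays its ratios were 0.0519, 0.0570 and 0.0729. On the crest arrays they were 4.64, 1, 2.60, 0.644 and 0.410, and on the mesoderm arrays 1.21, 0.450 and 5.36. All 3 neuroepithelium arrays lay below all 8 others, and crest and mesoderm overlapped. The mean log2 ratio was 21.0-fold higher in crest than in neuroepithelium (log2 difference 4.39, SE 0.95) and 23.8-fold higher in mesoderm than in neuroepithelium (log2 difference 4.58, SE 1.06). Without mesoderm array 3 the mesoderm difference was 3.62 and without array 2 it was 5.41. On log2(ratio + 0.1) both were smaller, at 3.12 for crest and 3.30 for mesoderm, and with array weights the mesoderm difference was 3.72. After quantile normalization the spread was wider, with differences of 4.12 for crest (SE 1.64) and 4.77 for mesoderm (SE 1.83). Neither difference passed in limma (unadjusted p = 0.00131 and 0.00207, adjusted p = 1.00 for both). Over all settings the adjusted p ran from 0.312 to 1 against crest and from 0.479 to 1 against mesoderm. Lamp1 was known from earlier results of these data, so its pattern is a description.

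Each varying gene was also split at the widest gap in the order of its arrays. Where the split falls does not depend on the reference, although the choice of varying genes does. Lamp1 was then the only member of the 24 whose gap set every array of a tissue apart from all arrays of the others (4.17%). Of all 4970 varying genes 8 did so (0.161%). Lamp1 was known from earlier results of these data, so these shares are a description and no test. Its gap was 5.63-fold, between 0.0729 on neuroepithelium array 3 and 0.410 on crest array 5. Surface ectoderm markers moved with this pattern in part. Their summed log2 ratio ran from 22.4 to 32.8 over neuroepithelium, from -1.28 to 6.77 over crest and from -2.51 to 22.9 over mesoderm. Mesoderm array 2, the only other array with 4 such markers high, had a Lamp1 ratio of 0.450, above all 3 neuroepithelium arrays. The part of these markers in the result was not tested.

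Lamp2 encodes the sister glycoprotein, needed for fusion of autophagosomes with lysosomes and for chaperone-mediated autophagy, and it ran the other way. Its ratios were 1.57, 56.5 and 33.7 on the neuroepithelium arrays. On the crest arrays they were 0.945, 1.02, 0.997, 0.994 and 1.01, and on the mesoderm arrays 4.11, 0.995 and 0.981. Neuroepithelium arrays 2 and 3 stood far above the rest, array 1 was only just above the crest arrays, and mesoderm array 1 was above neuroepithelium array 1. The mean was lower in crest than in neuroepithelium by a log2 difference of -3.86 (SE 1.06, limma adjusted p = 1.00, unadjusted p = 0.00550). Without neuroepithelium array 1 the difference was -5.46 and passed in limma (adjusted p = 0.0156), as did the test among the 3 tissues (adjusted p = 0.0381). That was the only array whose removal gave any member a call. Without neuroepithelium array 2 the difference was -2.87 and without array 3 it was -3.24, with an adjusted p of 1.00 in limma for both, and with array weights it was -3.02. Of the surface ectoderm markers 4 to 6 were high on each neuroepithelium array, array 1 included, and their part in the Lamp2 values was not tested.

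**Figure D2:**
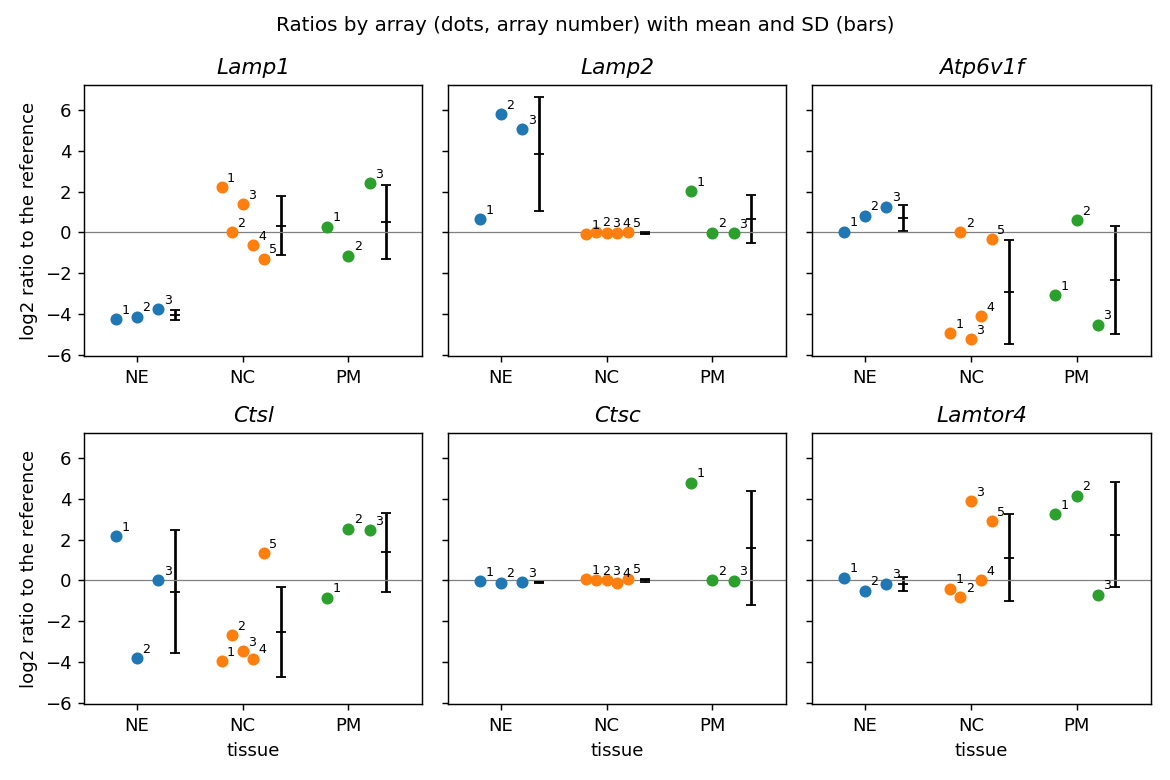
Log2 ratio to the gene's reference (y axis) by tissue (x axis; NE neuroepithelium, NC neural crest, PM paraxial mesoderm) for 6 genes, each dot being an array with its number and each bar the mean and SD. Lamp1 lies near -4 on all 3 neuroepithelium arrays and above -2 elsewhere, whereas Lamp2 is high on neuroepithelium arrays 2 and 3.

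The stretch before the Lamp1 start site is shown because it holds the E-box core of the TFEB element 4 times. It lies at chr8:13159089-13159160 on the plus strand (RefSeq, GRCm38.p6), from 72 bases to 1 base before the annotated start, and capitals mark CACGTG, a palindrome that reads the same on both strands.

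Lamp1: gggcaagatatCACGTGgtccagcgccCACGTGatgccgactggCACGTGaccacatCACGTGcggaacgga

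Of 32851 RefSeq promoters of 300 bases, 8 (0.0244%) held CACGTG 4 times or more, and 7.15% held it at all. Promoters were listed for 42 of the 54 members, and 12 of these genes had the motif (28.6%, against 8.09% of all 27025 genes). Atp6v0b, Ctsa, Ctsd and Lamtor4 had 2 copies each, and Atp6v0d1, Atp6v0e, Atp6v1a, Ctsf, Ctsl, Ctsll3 and Lamtor1 had 1. The longer palindrome TCACGTGA, which contains CACGTG, was present in 5 members (11.9%, against 1.12% of all genes). A still longer palindrome, which extends TCACGTGA by a base on each side, was also searched for. It was present in 0 of the 42 members, against 0.370% of all genes. With so rare a string, 0 of 42 cannot tell a lack from the background share. A match is only a string of letters in this window, and CACGTG is the core of the TFEB element and not the whole of it. The 5 members with TCACGTGA are 3 pump subunits and 2 cathepsins, shown here with that palindrome in capitals.

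Atp6v0d1: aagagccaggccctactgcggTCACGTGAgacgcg
Atp6v0e: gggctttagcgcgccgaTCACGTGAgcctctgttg
Atp6v1a: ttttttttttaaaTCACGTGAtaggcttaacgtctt
Ctsd: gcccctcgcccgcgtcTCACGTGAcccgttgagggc
Ctsa: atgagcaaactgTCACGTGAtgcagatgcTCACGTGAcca

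In the same build these lie at chr8:105566055-105566089 (minus strand), chr17:26676381-26676415 (plus), chr16:44139369-44139404 (minus), chr7:142387907-142387942 (minus) and chr2:164833748-164833787 (plus). The Atp6v0d1, Atp6v0e and Ctsa stretches span the annotated start, and the Ctsa stretch belongs to 1 of its 2 listed promoters. Of the genes with this palindrome, Atp6v0e was high on 7 arrays, Atp6v1a on mesoderm array 1 alone and Ctsd on 2 arrays. Atp6v0d1 was low on 4 arrays, and Ctsa was neither high nor low on any (0.905 to 2.77). The 4 measured factors of the TFEB family (Tfeb, Tfe3, Mitf and Tfec) were neither high nor low on any array. Such ratios do not tell a silent factor from one equally active on all arrays. The part of these factors and of the palindrome in the members' values was not tested.

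Of the 5 Ragulator genes 4 varied, each with its own set of arrays. Lamtor1, the lipid-anchored scaffold that ties the complex to the membrane, had ratios of 9.18, 0.222 and 6.26 across neuroepithelium, 0.270, 15.8, 18.7, 19.1 and 3.82 on the crest arrays, and 1, 0.260 and 0.803 on the mesoderm arrays. On this probe crest arrays 2 to 4 and neuroepithelium arrays 1 and 3 were high, and no mesoderm array was. Crest array 1 lay among the low mesoderm values, so the tissues overlapped. A second Lamtor1 probe put the same crest arrays 2 to 4 at 2.42 to 3.20 and gave mesoderm array 1 a ratio of 2.39, above the 1.44 of crest array 5. It put neuroepithelium arrays 1 and 3 at 1.55 and 1, so no array was high on it. Neuroepithelium array 2, crest array 1 and mesoderm array 2 were low on it, at 0.0343, 0.0362 and 0.0411. These arrays were also the lowest on the first probe.

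Lamtor5, a small subunit of the same complex, was low on some arrays and high on none. It stood at 1.34, 0.977 and 1.76 on the neuroepithelium arrays, at 0.0279, 1.07, 0.0264, 1.13 and 0.187 on the crest arrays, and at 0.865, 1 and 0.0315 on the mesoderm arrays. Crest arrays 1, 3 and 5 and mesoderm array 3 were low, and no neuroepithelium array was. Lamtor4 was at 1.10, 0.703 and 0.896 on the neuroepithelium arrays, at 0.757, 0.563, 14.97, 1 and 7.56 on the crest arrays, and at 9.53, 17.97 and 0.620 on the mesoderm arrays. It was high on 2 crest and 2 mesoderm arrays and on no neuroepithelium array. Lamtor3, which binds MEK1 as a scaffold, was at 53.4, 1.01 and 0.792 on the neuroepithelium arrays, at 1.22, 1.04, 17.8, 0.997 and 1.41 on the crest arrays, and at 1, 15.2 and 0.833 on the mesoderm arrays. Exactly 1 array of each tissue was high, although a second Lamtor3 probe put crest array 3 at 1.34.

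In the V1 sector of the pump, all 8 broadly expressed subunits varied. Atp6v1f, part of the central stalk, had ratios of 1.02, 1.77 and 2.40 across neuroepithelium, 0.0325, 1.00, 0.0266, 0.0581 and 0.796 on the crest arrays, and 0.118, 1.53 and 0.0435 on the mesoderm arrays. Crest arrays 1, 3 and 4 and mesoderm arrays 1 and 3 were low, whereas neuroepithelium was not. Its mean was lower in crest than in neuroepithelium (log2 difference -3.63, SE 1.57, limma adjusted p = 1.00, unadjusted p = 0.0472), with no overlap by a margin of 1.02 against 1.00. The difference was -4.36 without crest array 2, -4.28 without crest array 5 and -2.51 on log2(ratio + 0.1). On a second Atp6v1f probe the groups overlapped, at 1.02 on neuroepithelium array 1 and 1.06 on crest array 2.

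Atp6v1d, also of the central stalk, was split within each tissue. It stood at 0.465, 0.116 and 6.47 on the neuroepithelium arrays, at 0.104, 0.108, 4.55, 6.05 and 3.62 on the crest arrays, and at 6.86, 6.28 and 0.129 on the mesoderm arrays. Atp6v1g1, of the peripheral stalk, was low on mesoderm array 3 alone (0.0173) and ran from 0.560 to 1.35 on the other 10 arrays. A second probe gave 0.0181 there and also put mesoderm array 2 at 0.300, where the first gave 0.829.

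The remaining V1 subunits were high on some arrays and low on none. Atp6v1e1, of the peripheral stalk, had the widest range of all members. It stood at 144, 120 and 1 on the neuroepithelium arrays, at 1.01, 26.6, 94.7, 0.943 and 26.0 on the crest arrays, and at 95.9, 0.753 and 0.934 on the mesoderm arrays. Atp6v1b2, the nucleotide-binding B subunit, was high on neuroepithelium arrays 1 (54.1) and 3 (46.7), crest array 3 (26.2) and mesoderm array 1 (31.4), and ran from 0.813 to 1.28 elsewhere. Atp6v1c1, which joins the sectors during assembly, was high on neuroepithelium array 3 (65.5), crest arrays 2 (29.4) and 3 (22.6) and mesoderm array 1 (49.7). Its other ratios ran from 0.967 to 1.15. Each of these was high in all 3 tissues and on mesoderm array 1.

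The catalytic subunit Atp6v1a was high on mesoderm array 1 alone (9.16) and lay at 0.878 to 1.15 on the other arrays. Atp6v1h, a regulator that permits ATP splitting in the assembled pump, was near 1 on the neuroepithelium arrays (1.08, 1.13 and 0.938). It varied in crest (0.873, 3.57, 14.3, 59.7 and 0.971) and in mesoderm (8.46, 1 and 0.870). Mesoderm array 1 was the only array on which the A and B subunits, which alternate in a ring of the pump, were both high.

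**Figure D3:**
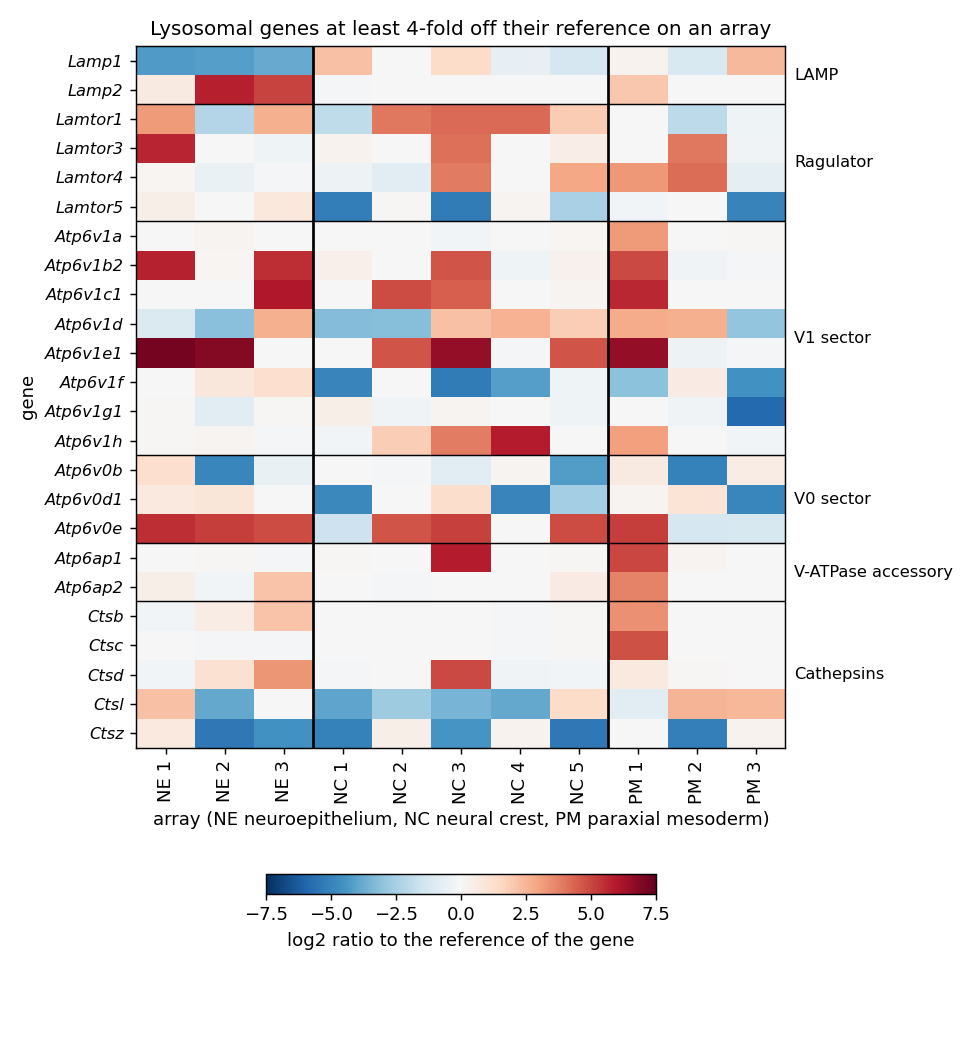
Log2 ratio to each gene's reference (colour, red high and blue low) for the 24 members that were high or low on at least 1 array (y axis), by array (x axis), with lines between tissues and between gene groups. Lamp1 is low across neuroepithelium, while most genes differ between arrays of the same tissue.

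In the V0 sector, 3 of 8 members varied. Atp6v0e, a small membrane subunit, was high on every neuroepithelium array (45.8, 36.3 and 29.1), on crest arrays 2, 3 and 5 (26.5, 35.2 and 29.3) and on mesoderm array 1 (35.8). The other arrays stood at 0.343 and 1 in crest and at 0.414 and 0.431 in mesoderm. Atp6v0d1, which couples the rotor to the stalk, had 1.67, 1.86 and 1 on the neuroepithelium arrays, 0.0351, 0.974, 2.503, 0.0326 and 0.169 on the crest arrays, and 1.15, 2.01 and 0.0338 on the mesoderm arrays. Like Atp6v1f and Lamtor5, it was low on crest array 1 and mesoderm array 3 and on no neuroepithelium array. Atp6v0b, of the proton-carrying ring, was low on neuroepithelium array 2 (0.0335), crest array 5 (0.0538) and mesoderm array 2 (0.0302). It ran from 0.556 to 2.40 on the other 8 arrays. The accessory protein Atp6ap1 was high on crest array 3 (59.1) and mesoderm array 1 (31.96) and lay at 0.948 to 1.17 elsewhere. Atp6ap2, the prorenin receptor, was high on neuroepithelium array 3 (4.45) and mesoderm array 1 (12.99), with 0.881 to 1.51 elsewhere.

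Among the 21 cathepsin genes 5 varied. Ctsl, a cysteine protease of nearly all cells, had ratios of 4.51, 0.0711 and 1 across neuroepithelium, 0.0642, 0.156, 0.0898, 0.0697 and 2.56 on the crest arrays, and 0.557, 5.86 and 5.52 on the mesoderm arrays. Of the 5 crest arrays 4 were low and no mesoderm array was, but crest array 5 exceeded mesoderm array 1. The log2 difference of crest from mesoderm was -3.91 (SE 1.66, limma unadjusted p = 0.0436, adjusted p = 1.00). It was -4.88 without crest array 5, -5.03 without mesoderm array 1, -3.11 on log2(ratio + 0.1) and -4.77 with array weights. Ctsz, a carboxypeptidase, fell into a low and an upper set in each tissue, with 1.68, 0.0241 and 0.0425 on the neuroepithelium arrays, 0.0296, 1.37, 0.0474, 1.21 and 0.0246 on the crest arrays, and 1, 0.0283 and 1.18 on the mesoderm arrays.

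The other 3 were high on few arrays. Ctsd, the main aspartic protease, was high on neuroepithelium array 3 (9.81) and crest array 3 (30.8), with 0.843 to 2.23 elsewhere. Ctsb, a cysteine protease, was high on neuroepithelium array 3 (4.40) and mesoderm array 1 (10.8), with 0.874 to 1.48 elsewhere. Ctsc, which activates serine proteases of blood cells, was high on mesoderm array 1 alone (27.9) and lay at 0.926 to 1.07 on all other arrays. Its difference of mesoderm from neuroepithelium was a log2 value of 1.67 (SE 1.08, limma adjusted p = 1.00) and was 0.06 without mesoderm array 1. That array was also the only one with primitive erythrocyte markers (summed log2 ratio 43.5 over 9 genes, against -0.860 to 1.20 on the other arrays), whose part in the result was not tested.

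Arrays differed in how many of the 24 varying members they held in the upper set, above the gene's widest gap. An upper set can leave out arrays that were high. That of Atp6v1h held crest array 4 alone, without crest array 3 (14.3) and mesoderm array 1 (8.46). Mesoderm array 1 held 18 of 24 (75.0%), neuroepithelium array 3 held 15 and crest array 3 held 14, whereas crest array 1 held 3 and mesoderm array 3 held 4. The others held 7 to 12. The share over all 4970 varying genes was highest on mesoderm array 1 (46.3%) and crest array 5 (43.8%) and lowest on crest array 1 (15.5%) and mesoderm array 3 (15.6%). Crest array 5 thus had 41.7% of members against 43.8% of all varying genes, and crest array 1 had 12.5% against 15.5%, whereas the other 9 arrays had a larger share of members than of all varying genes. Varying members had a median of 4.5 arrays in their upper set, against 2 for all varying genes. A larger member share on most arrays follows from that count and does not show members raised on those arrays. Mesoderm array 1, the highest, is also the array with 7 primitive erythrocyte markers high. The part of these markers and of the array-wide differences in the members' values was not tested.

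**Figure D4:**
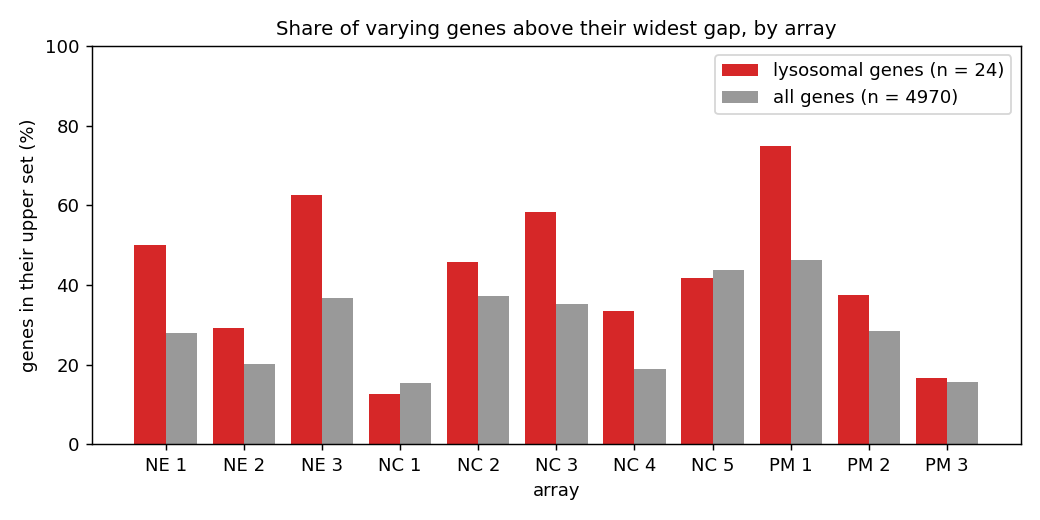
Share of varying genes in their upper set (y axis, %, from 0 to 100) on each array (x axis; NE neuroepithelium, NC neural crest, PM paraxial mesoderm), for the 24 varying lysosomal genes (red) and all 4970 varying genes (grey). The member share runs from 12.5% on crest array 1 to 75.0% on mesoderm array 1.

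Counted against the reference, with the share of all genes on that array in brackets, the members high were 6 (3.69%), 3 (2.91%) and 9 (5.63%) on neuroepithelium arrays 1 to 3. They were 1 (2.06%), 4 (5.81%), 11 (5.34%), 3 (2.06%) and 3 (7.52%) on crest arrays 1 to 5, and 13 (8.11%), 4 (4.03%) and 2 (1.91%) on mesoderm arrays 1 to 3. This order depended on the scaling: after quantile normalization crest array 3 held the most high members (10), mesoderm array 1 held 6, as neuroepithelium arrays 1 and 2 did, crest array 1 held 3 and crest array 5 the fewest (2). Low members numbered 1 (0.757%), 6 (2.03%) and 2 (0.507%) on the neuroepithelium arrays, 6 (2.52%), 2 (0.366%), 4 (0.692%), 3 (1.49%) and 4 (0.336%) on the crest arrays, and 1 (0.542%), 2 (1.1%) and 5 (2.27%) on the mesoderm arrays. The mean number high was 6 ± 3 (SD, n = 3) per neuroepithelium array, 4.4 ± 3.85 (n = 5) per crest array and 6.33 ± 5.86 (n = 3) per mesoderm array. For low members it was 3 ± 2.65, 3.8 ± 1.48 and 2.67 ± 2.08 in the same order. The tissue means thus lay closer together than the arrays within a tissue.

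No member passed in any comparison in limma. For crest against neuroepithelium 0 of 54 were called (background 0.0301% of genes, 0.01% higher and 0.0201% lower), with 4 below an unadjusted p of 0.05 (7.41%, against 2.79% of all genes). For crest against mesoderm 0 were called (background 0.01%), with 2 unadjusted (3.70% against 2.89%), and for mesoderm against neuroepithelium 0 (background 0.015%), with 4 unadjusted (7.41% against 2.48%). The F test among the 3 tissues called 0 (background 0.0301%), with 3 unadjusted (5.56% against 2.57%). The median log2 difference over the members was 0.00, -0.01 and 0.02 in the 3 comparisons in turn, and over all genes 0.00 in each. The 3 comparisons share arrays.

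Few members separated a pair of tissues with no overlap and a log2 difference of at least 1. In crest against neuroepithelium Lamp1 was higher (background 0.436% of genes) and Lamp2 and Atp6v1f were lower (background 0.366%), 3 of 54 in all (5.56%, background 0.802%). In mesoderm against neuroepithelium Lamp1 and Ctsc were higher (background 0.632%), Ctsc through a single array, and 0 were lower (background 0.898%), 2 of 54 in all (background 1.53%). In crest against mesoderm 0 did so (background 0.552%, 0.371% higher and 0.181% lower). Both other comparisons include Lamp1, known from earlier results of these data, so their shares are descriptions.

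Other lysosomal genes were taken as 8 lists. Across them 0 of 135 measured genes passed in any comparison in limma. Below an unadjusted p of 0.05 in limma were 0 in crest against neuroepithelium, where 2.79% of all genes were. The count was 4 in crest against mesoderm (2.96% against 2.89% of all genes) and 3 in mesoderm against neuroepithelium (2.22% against 2.48%). Of the 135 genes, 47 (34.8%) were high or low on at least 1 array. The share of varying genes was 8 of 15 for late endosome traffic (the HOPS and BORC complexes), 8 of 17 for delivery of enzymes to lysosomes, 13 of 28 for the Rag GTPases, mTORC1 and their regulators, and 4 of 10 for assembly and regulation of the pump. It was 6 of 22 for other membrane proteins, 6 of 28 for lysosomal hydrolases and 2 of 11 for cathepsin inhibitors, against 24.9% of all genes. Bloc1s1 is shared by the BORC and BLOC complexes, which position lysosomes and form related organelles. It was the only gene of these lists with no overlap and a log2 difference of at least 1. That is 1 of 135, no more than the background of 0.898% of genes lower in mesoderm than in neuroepithelium. Bloc1s1 stood at 9.14, 2.51 and 9.83 on the neuroepithelium arrays, at 0.213, 0.421, 8.03, 1 and 3.93 on the crest arrays and at 0.782, 1.90 and 0.208 on the mesoderm arrays. Every mesoderm array lay below every neuroepithelium array (log2 difference -3.17, SE 1.42, limma adjusted p = 1.00), and crest covered both. The difference was -3.81 without neuroepithelium array 2, -3.92 without mesoderm array 2, -2.32 without mesoderm array 3, -2.58 after quantile normalization and -2.55 with array weights.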

How the data were processed

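Per the labels' protocols, cells were captured by laser from frozen sections and their RNA was amplified, labelled with biotin and hybridised. The submitters' processing notes name RMA and mm9 but no version of RMA. The values as deposited are linear ratios: on 8 arrays the median was 1, and for every probe with exactly 1 of these at 1 (within 1e-05; 26141 probes) 3 or 4 of them lay below it, so the reference behaved as the probe's median over 9 arrays, 1 of them not analysed here. No source used here says how the authors formed the ratio.

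Of 28856 probes with values, 21789 had 1 symbol in the platform annotation. The probe with the highest mean log2 stood for each of 19938 genes. Another 4 probes, naming both Cts3 and Ctsm, were left out. Entrez identifiers matched all 54 members in a RefSeq table (GRCm38.p6) with 0 symbols changed. The 11 arrays number too few for fine comparisons.

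Log2 ratios were fitted with lmFit and eBayes, without an intensity trend, since a ratio carries no intensity, in limma 3.58.1 under R 4.3.3: 3 group means over all 11 arrays, Benjamini-Hochberg over all genes, two-sided 0.05. The script was run on simulated, normally spread values with planted shifts, to check the estimated differences. Such values do not show how the p-values behave for genes split into a low and an upper set. Values on every array are given for members that passed, that separated 2 tissues by a log2 difference of at least 1, or that were 4-fold off their reference somewhere. The members and lists were chosen with earlier results of these data known. Alternatives covered the prior variance, samples fitted, replicate block, probe, filter, normalization, log scale, array weights and each array left out.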

Additional observations from a re-analysis of the deposited data

Results flagged for a closer look

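Within the 5 crest arrays, 8 of the 24 varying members had 1 array far from the other 4 by a gap test. About 1 of 20 groups of normally spread values meets that test. The 24 members were picked for an extreme ratio on an array, so this rate is no yardstick for them. The share over all genes was not computed. Crest array 3 stood above the others for Atp6ap1 (59.1), Atp6v1b2 (26.2), Ctsd (30.8) and Lamtor3 (17.8). Crest array 5 stood above the others for Ctsl (2.56) and Atp6ap2 (1.51), both under 4-fold, and below them for Atp6v0b (0.0538). Crest array 4 stood below the others for Ctsb, at 0.888, in a group that otherwise lay between 1 and 1.05. The other 30 members gave 5 more such groups.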

How the results depend on the processing

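The number of members called was 0 in all 4 tests with all arrays, and stayed 0 under every alternative that kept all arrays, the replicate block included (0 called in each test). With 1 array left out it ran from 0 to 1 for crest against neuroepithelium and for the test among tissues, the 1 being Lamp2 without neuroepithelium array 1, and was 0 in the other 2 comparisons. Arrays that share a replicate number showed no clear sign of being paired (correlations of -0.153 to 0.0505 over 9 pairs). Of 9 arrays, 0 correlated best with the array of the same number in both other tissues. A best match in a single other tissue was not counted. Such correlations cannot exclude a shared embryo or batch, which the labels do not give. Under the replicate block Lamp2 differed by -3.87 and Atp6v1f by -4.10 between crest and neuroepithelium. The differences reported for Lamp1, Lamp2, Atp6v1f, Ctsc, Ctsl and Bloc1s1 kept their direction under every alternative, those for Ctsl and Bloc1s1 having been recomputed as a choice made after seeing the data. Ctsc in mesoderm against neuroepithelium ran from 0.06 without mesoderm array 1 to 2.47 without array 2 or 3. The count of varying members (24) was 25 at 2-fold, 24 at 8-fold, 23 after quantile normalization and 22 without mesoderm array 1 (these settings were chosen after seeing the data). Members high on mesoderm array 1 numbered 6 after quantile normalization in place of 13, on neuroepithelium array 3 they numbered 5 in place of 9, and on crest array 1, otherwise the lowest with 1, they numbered 3, above the 2 on crest array 5. Genes called over the whole table moved more. They numbered 6, 2 and 3 in the 3 comparisons and 6 in the F test. With an intensity trend they numbered 2, 0, 2 and 3. The prior variance of that fit ran from 0.00165 to 4.61e+15, so its counts carry little weight. With only the 2 tissues fitted they numbered 11 in crest against neuroepithelium and 5 in mesoderm against neuroepithelium. With 1 array left out they ran from 5 to 19, 1 to 43, 3 to 39 and 5 to 42. The first was highest without neuroepithelium array 2 and the others without mesoderm array 3.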
